A study of Mus musculus with 14 samples.

Results

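Keratins are the intermediate filament proteins of epithelial cells, and their mouse genes were taken here as every gene whose symbol is Krt followed by a number and at most 1 letter. This rule found 51 genes among the 47729 in the RNA count files, 27 on chromosome 11 and 24 on chromosome 15, and it left out the keratin-associated protein genes. They were described in back skin of aged (24-month-old) and young (2-month-old) female mice. The strain stands in the labels as C57B6 in one field and C57B8 in another. Skin was digested with trypsin and sorted from Lineage-negative cells high in integrin alpha6. Stem cells of the epidermis (EpdSC) were the CD34-, Sca1+ part of these and stem cells of the hair follicle (HFSC) the CD34+, Sca1- part. Each population had 2 aged and 2 young RNA-seq libraries, and 1 aged and 1 young library of ATAC-seq, which reads open chromatin. For single cells, 1 aged and 1 young 10x library came from Lineage-negative, integrin alpha6-positive cells, a gate that holds both populations. No group carried a transgene or a treatment.

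A keratin filament is built from pairs of 1 type I and 1 type II chain, and in the mouse the type I genes lie together on chromosome 11 and the type II genes, with the type I gene Krt18, on chromosome 15. Basal keratinocytes of the epidermis make Krt5 with Krt14, and Krt15 is known as a keratin of the bulge, the stem cell niche of the hair follicle. Cells that leave the basal layer switch to Krt1 and Krt10. Krt6a, Krt16 and Krt17 are made in follicle layers and in wounded epidermis, and other members belong to the inner root sheath, the hair shaft or simple epithelia.

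The promoters of 5 members on which the results turn are shown because the openness of these regions is set beside the RNA further on. Each runs from 250 bases before to 50 after the gene start, 5′ to 3′ on the gene's strand, in RefSeq's annotation of GRCm38.p6. All 5 lie on the minus strand. Krt5 (the basal type II keratin) is at chr15:101712856-101713155, Krt10 (suprabasal, type I) at chr11:99389315-99389614, Krt77 (suprabasal, type II) at chr15:101869656-101869955, Krt24 (type I, high in HFSC) at chr11:99285213-99285512 and Krt75 (a type II keratin of the companion layer) at chr15:101573855-101574154. Capitals mark every match to ATANA, a TATA-like run, that begins 20 to 40 bases before the start, and in Krt75 also the GC box CCGCCC.
Krt5: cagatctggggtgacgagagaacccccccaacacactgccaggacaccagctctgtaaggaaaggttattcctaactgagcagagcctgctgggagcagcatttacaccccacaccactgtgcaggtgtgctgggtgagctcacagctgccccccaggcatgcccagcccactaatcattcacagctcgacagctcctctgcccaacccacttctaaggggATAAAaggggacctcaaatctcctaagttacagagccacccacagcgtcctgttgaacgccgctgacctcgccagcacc
Krt10: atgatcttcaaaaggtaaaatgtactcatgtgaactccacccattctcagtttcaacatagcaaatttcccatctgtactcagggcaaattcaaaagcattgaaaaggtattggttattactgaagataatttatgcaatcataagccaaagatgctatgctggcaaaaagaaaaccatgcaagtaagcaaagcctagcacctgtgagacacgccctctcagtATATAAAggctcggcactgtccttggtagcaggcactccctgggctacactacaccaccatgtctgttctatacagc
Krt77: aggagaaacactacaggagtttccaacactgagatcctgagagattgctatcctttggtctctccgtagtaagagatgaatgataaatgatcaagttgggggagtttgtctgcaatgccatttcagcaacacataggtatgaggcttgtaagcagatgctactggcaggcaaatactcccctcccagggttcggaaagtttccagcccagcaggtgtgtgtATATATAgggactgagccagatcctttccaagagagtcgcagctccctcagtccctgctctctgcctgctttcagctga
Krt24: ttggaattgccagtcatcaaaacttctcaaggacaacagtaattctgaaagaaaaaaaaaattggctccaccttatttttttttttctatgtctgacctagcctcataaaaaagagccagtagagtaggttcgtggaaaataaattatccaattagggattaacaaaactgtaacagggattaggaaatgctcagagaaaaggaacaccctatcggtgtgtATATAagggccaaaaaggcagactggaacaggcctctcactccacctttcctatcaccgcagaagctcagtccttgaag
Krt75: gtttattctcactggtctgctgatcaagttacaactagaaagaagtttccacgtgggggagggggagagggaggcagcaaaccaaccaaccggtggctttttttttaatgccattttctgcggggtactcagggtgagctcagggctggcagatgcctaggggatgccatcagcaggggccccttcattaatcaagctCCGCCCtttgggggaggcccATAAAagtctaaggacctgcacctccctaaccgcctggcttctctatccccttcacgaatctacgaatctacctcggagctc
The first such match began 29 bases before the start in Krt5, 27 in Krt10, 29 in Krt77, 29 in Krt24 and 32 in Krt75. RefSeq sequences were at hand for 35 of the 51 members, and 25 of these 35 (71.4%) held ATANA on the gene's strand at that distance, against 2505 of 32851 promoters of all genes (7.63%). The search for ATANA was chosen after the sequences had been seen. For the motif shares and GC content, keratins enter with 1 promoter per gene. The values over all genes take every promoter listed, so a gene may enter more than once there. Anywhere in the 300 bases and on either strand, TATAAA stood in 19 of the 35 keratin promoters (54.3%) and in 13.6% of all promoters. The GC box GGGCGG stood in 2 of 35 (5.71%), against 35.7% of all. The AP-1 motif TGANTCA was in 1 of 35 (2.86%, against 7.81%), the AP-2 motif GCCNNNGGC in 6 (17.1%, against 16.6%), the SOX motif CTTTGT in 4 (11.4%, against 18.7%) and the homeodomain motif TAATTA in 5 (14.3%, against 5.29%). TATAAA and ATANA can mark the same letters. Median GC content was 48.7% in keratin promoters (lowest 39.7%, highest 66.3%) and 52.7% in all.

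The RNA libraries held 25126808 to 35905505 counts on genes. Levels are given as CPM, counts divided by the library total and scaled to a common depth, without division by transcript length, so they are compared between samples and not between genes. Cd34, the sorting marker, had 1088 and 1194 CPM in aged HFSC, 1807 and 1715 CPM in young HFSC, and 0.34 to 1.81 CPM in EpdSC. Differences were tested with edgeR's quasi-likelihood test in 1 fit of the 8 libraries, and a keratin is called when its Benjamini-Hochberg adjusted p, over 21464 genes, is under 0.05. Of the 51 keratins, 40 had enough counts to be tested. A gene that passed this filter through the population where it is high tends to differ between populations, so counts of calls describe only the 40. The labels do not say whether the libraries of a group came from separate animals, and the p-values then measure the spread between these libraries, which may be technical. In sorted bulk RNA, a change in the share of cells of one kind and a change in RNA per cell cannot be told apart.

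Keratin genes took 2.54% and 2.74% of all counts in the aged EpdSC libraries and 2.20% and 2.28% in the young, against 1.33% and 1.64% in aged HFSC and 1.25% and 1.41% in young HFSC. No EpdSC library overlapped an HFSC library. Type I genes supplied 61.8% to 68.05% of the keratin counts in every library.

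Of the basal keratins, Krt14 and Krt5 rose in EpdSC relative to HFSC at either age, and Krt15 was at a like level in both populations. Krt14, the type I partner of Krt5, had 10982 and 13273 CPM in aged EpdSC against 2278 and 3703 CPM in aged HFSC. In young mice it had 9168 and 7443 CPM in EpdSC against 2104 and 1762 CPM in HFSC. The log2 fold change, EpdSC over HFSC, was 2.02 ± 0.22 (SE) in aged mice (edgeR adjusted p = 4.31e-05) and 2.10 ± 0.23 in young mice (adjusted p = 2.76e-05). Krt5 differed less, with 6858 and 6217 CPM in aged EpdSC against 3251 and 4167 CPM in aged HFSC, and 6372 and 5907 CPM in young EpdSC against 3265 and 3693 CPM in young HFSC. Its log2 fold change was 0.82 ± 0.15 at each age (edgeR adjusted p = 0.00221 aged, 0.00202 young). Krt14 and Krt5 thus stood apart between the populations without overlap. Krt15 had 4317 and 3694 CPM in aged EpdSC against 4831 and 5249 CPM in aged HFSC, and 4120 and 5436 CPM in young EpdSC against 4693 and 6343 CPM in young HFSC. In young mice the Krt15 levels of the populations overlapped, and neither age passed the test (log2 fold change -0.33 ± 0.18 aged, edgeR adjusted p = 0.236, and -0.21 ± 0.18 young, adjusted p = 0.475).

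**Figure D1:**
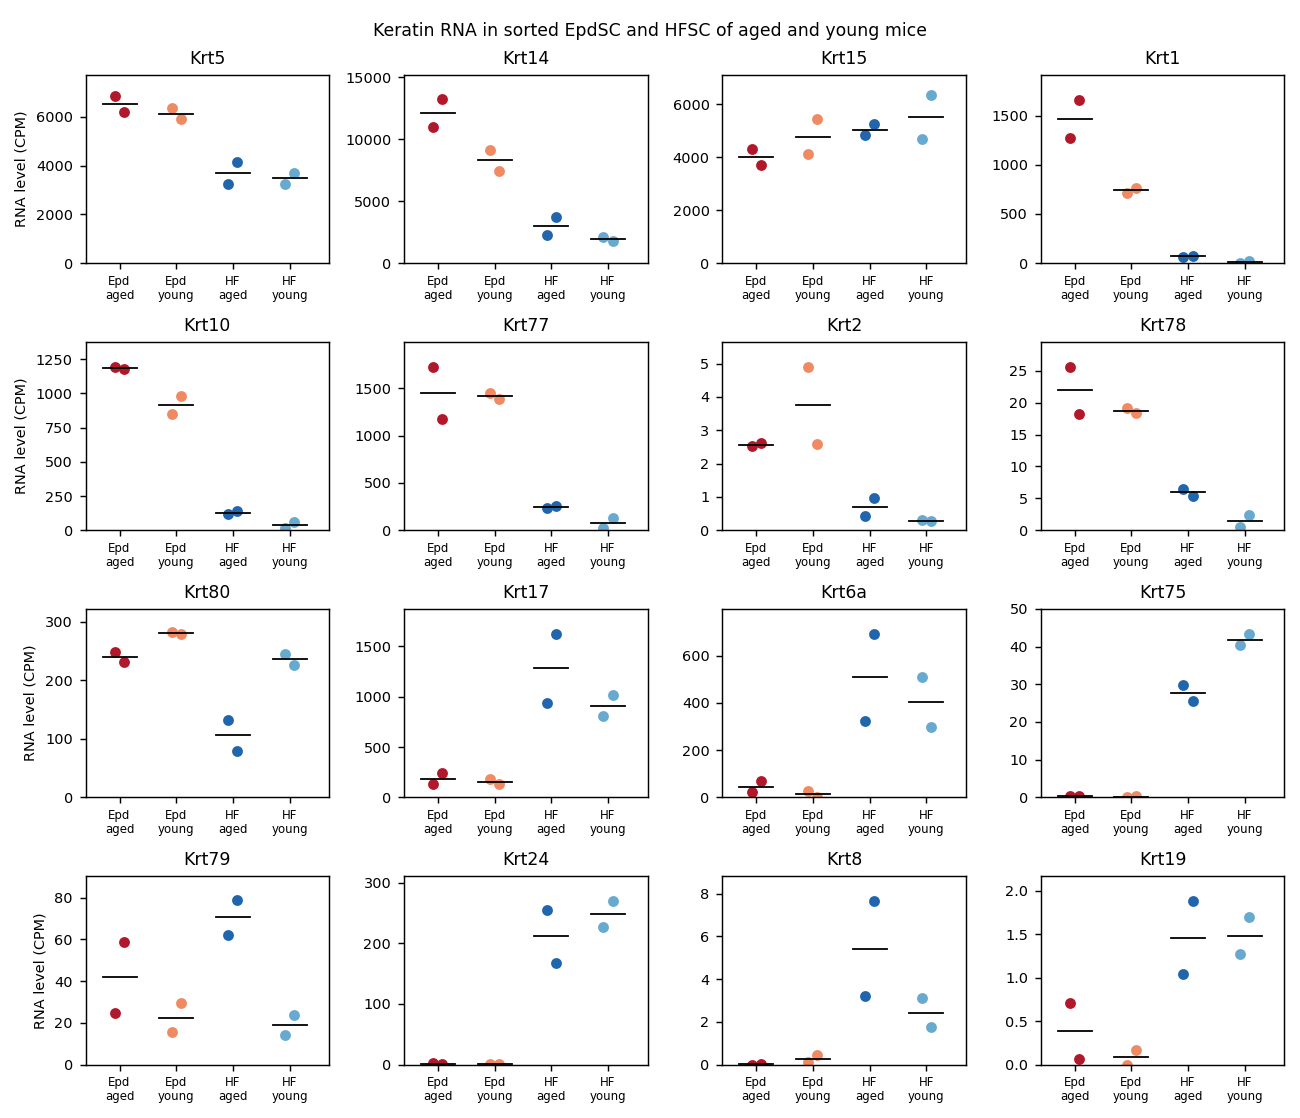
RNA level of 16 keratins in CPM (linear axes from 0, 1 per gene) in each of the 8 libraries, EpdSC left of HFSC and aged left of young. Points are libraries and bars are the mean of 2; Krt1, Krt10 and Krt77 are high in EpdSC and Krt24 and Krt75 in HFSC, while the Krt15 points lie close together.

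Most suprabasal keratins were higher in EpdSC: of 9 tested, 6 passed in aged mice and 5 in young mice, none in the other direction, with median log2 fold changes of 1.88 and 3.69. Krt1, the type II keratin that pairs with Krt10 above the basal layer, had 1272 and 1660 CPM in aged EpdSC against 60.6 and 76.8 CPM in aged HFSC, and 710 and 766 CPM in young EpdSC against 2.70 and 18.0 CPM in young HFSC. Every EpdSC library was above every HFSC library, and both aged HFSC libraries were above both young ones. The log2 fold change of Krt1, EpdSC over HFSC, was 4.41 ± 0.59 in aged mice (edgeR adjusted p = 0.000185) and 6.17 ± 0.65 in young mice (adjusted p = 2.53e-05).

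Krt10 had 1193 and 1178 CPM in aged EpdSC against 115 and 143 CPM in aged HFSC, and 845 and 981 CPM in young EpdSC against 13.6 and 61.2 CPM in young HFSC. Krt77, a suprabasal type II keratin, had 1726 and 1172 CPM in aged EpdSC against 240.1 and 254 CPM in aged HFSC, and 1453 and 1391 CPM in young EpdSC against 22.9 and 131 CPM in young HFSC. These genes shared the order seen for Krt1, with the first young HFSC library lowest. Krt10 rose in EpdSC by 3.20 ± 0.49 on the log2 scale in aged mice (edgeR adjusted p = 0.000496) and by 4.61 ± 0.53 in young mice (adjusted p = 4.52e-05), and Krt77 by 2.55 ± 0.55 (adjusted p = 0.00529) and 4.21 ± 0.60 (adjusted p = 0.000254). The spread between the young HFSC libraries carried into these values: without the second one they were 8.09 for Krt1, 6.06 for Krt10 and 5.95 for Krt77, and without the first 5.39, 3.93 and 3.47.

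Krt78 and Krt2, suprabasal keratins at lower levels, were also called at both ages. Krt78 had 25.6 and 18.2 CPM in aged EpdSC against 6.47 and 5.40 CPM in aged HFSC, and 19.1 and 18.4 CPM in young EpdSC against 0.50 and 2.40 CPM in young HFSC. Krt2 had 2.54 and 2.60 CPM in aged EpdSC against 0.44 and 0.95 CPM in aged HFSC, and 4.91 and 2.60 CPM in young EpdSC against 0.30 and 0.28 CPM in young HFSC. The aged Krt2 call (log2 fold change 1.88) was lost without the first aged HFSC library (edgeR adjusted p = 0.145) or either aged EpdSC library (0.0664 and 0.0653), and the young Krt78 value (3.72) was 5.21 without the second young HFSC library and 2.99 without the first. Krt80, a type II keratin tied to late differentiation, differed from these: it had 249 and 232 CPM in aged EpdSC against 132 and 80.1 CPM in aged HFSC, and 283 and 279 CPM in young EpdSC against 245 and 226 CPM in young HFSC. It passed in aged mice (log2 fold change 1.18 ± 0.20, edgeR adjusted p = 0.00112) and not in young mice (0.25 ± 0.20, adjusted p = 0.418).

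Krt24 and Krt75 were much lower in EpdSC. Krt24, a type I keratin of stratified epithelia, had 1.82 and 1.14 CPM in aged EpdSC against 255 and 168 CPM in aged HFSC, and 1.29 and 1.61 CPM in young EpdSC against 227 and 269 CPM in young HFSC. Krt75, known from the companion layer between the root sheaths, had 0.28 and 0.36 CPM in aged EpdSC against 29.8 and 25.4 CPM in aged HFSC, and 0.12 and 0.30 CPM in young EpdSC against 40.4 and 43.3 CPM in young HFSC. Among all keratins these had the smallest p in both contrasts, with log2 fold changes for Krt24 of -7.15 ± 0.30 in aged mice (edgeR adjusted p = 4.25e-08) and -7.42 ± 0.30 in young mice (adjusted p = 2.43e-08), and for Krt75 of -6.42 ± 0.31 (adjusted p = 7.66e-08) and -7.66 ± 0.33 (adjusted p = 3.22e-08).

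Of the 5 stress, wound and companion layer keratins, 3 were called lower in EpdSC at each age, namely Krt75, Krt17 and Krt6a. Krt17 had 131 and 243 CPM in aged EpdSC against 941 and 1627 CPM in aged HFSC, and 179 and 130 CPM in young EpdSC against 803 and 1015 CPM in young HFSC. Its log2 fold change was -2.78 ± 0.32 in aged mice (edgeR adjusted p = 6.2e-05) and -2.56 ± 0.32 in young mice (adjusted p = 9.72e-05). Krt6a had 21.2 and 69.5 CPM in aged EpdSC against 324 and 691 CPM in aged HFSC, and 26.6 and 3.29 CPM in young EpdSC against 511 and 297 CPM in young HFSC. It fell by 3.48 ± 0.79 on the log2 scale in aged EpdSC (edgeR adjusted p = 0.00671) and by 4.75 ± 0.84 in young EpdSC (adjusted p = 0.00128). The young value was -6.93 without the first young EpdSC library and -3.91 without the second, and the aged value -4.55 without the second aged EpdSC library and -2.78 without the second aged HFSC library. Krt16, which pairs with Krt6a, overlapped between the populations at each age: 20.6 and 36.9 CPM in aged EpdSC against 13.6 and 55.0 CPM in aged HFSC, and 51.3 and 7.24 CPM in young EpdSC against 20.7 and 2.16 CPM in young HFSC. Krt16, Krt17 and Krt42 are close copies, as are Krt6a and Krt6b, and nothing used here says how the counting shared reads between them.

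Several keratins at low levels also passed. Krt8, a type II keratin of simple epithelia and of Merkel cells, had 0 and 0.03 CPM in aged EpdSC against 3.22 and 7.64 CPM in aged HFSC, and 0.12 and 0.43 CPM in young EpdSC against 3.10 and 1.77 CPM in young HFSC (edgeR adjusted p = 9.9e-05 aged, 0.00562 young). Summed levels of 5 Merkel cell markers were 0.80 and 2.90 CPM in aged EpdSC, 4.93 and 2.21 CPM in aged HFSC, 0.74 and 1.97 CPM in young EpdSC, and 3.26 and 2.64 CPM in young HFSC. Their part in the Krt8 result was not tested. Krt222 was lower in EpdSC at both ages (log2 fold change -2.71 aged and -2.36 young), and Krt28, an inner root sheath keratin, likewise (-2.66 and -2.61). Krt19 and the root sheath keratin Krt26 were lower in young EpdSC, with edgeR adjusted p of 0.0254 and 0.0377. Higher in EpdSC at both ages were Krt32, a hair shaft keratin (log2 fold change 1.59 aged and 2.28 young), and Krt4, a keratin of internal stratified epithelia (3.75 and 3.30). Krt42 was called lower in aged EpdSC, but its HFSC level rested on 1 library: 0.19 and 0.07 CPM in aged EpdSC against 1.31 and 66.3 CPM in aged HFSC. Leaving out 1 library ended several of these calls. Without the second aged HFSC library the edgeR adjusted p of Krt42 was 0.132, and without the first that of Krt32 in aged mice was 0.0617. For Krt4 it was 0.058 in aged mice without the second aged EpdSC library, and in young mice 0.0617 or 0.115 without either young HFSC library and 0.0717 without the first young EpdSC library. For Krt19 it was 0.0624 without the second young HFSC library and 0.116 without the first young EpdSC library. For Krt26 it was 0.146 or 0.0665 without either young HFSC library and 0.247 without the first young EpdSC library. The aged Krt28 call was lost without any 1 of the 4 aged libraries or without the second young HFSC library, and the young call without either young EpdSC library, the second young HFSC or the second aged HFSC library.

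In all, 10 keratins were called higher and 8 lower in aged EpdSC than in aged HFSC, beside 12.2% and 11.9% of all tested genes. In young mice 9 were higher and 9 lower, beside 13% and 13.1%. Of the 40 tested keratins these are larger shares than over all genes, with the filter as a limit on that reading. The median log2 fold change of the 40 was -0.64 in aged mice and -0.50 in young mice, against -0.09 and -0.06 over all genes. Of 8 inner root sheath keratins 1 was called lower in aged mice and 2 in young mice, of 5 tested hair shaft keratins 1 was called higher at each age, and 9 of the 14 hair shaft genes did not reach the filter. Krt25 and Krt71, inner root sheath keratins, were high in the second young library of each population: Krt71 had 0.26 and 7.50 CPM in young EpdSC and 1.53 and 11.2 CPM in young HFSC.

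**Figure D2:**
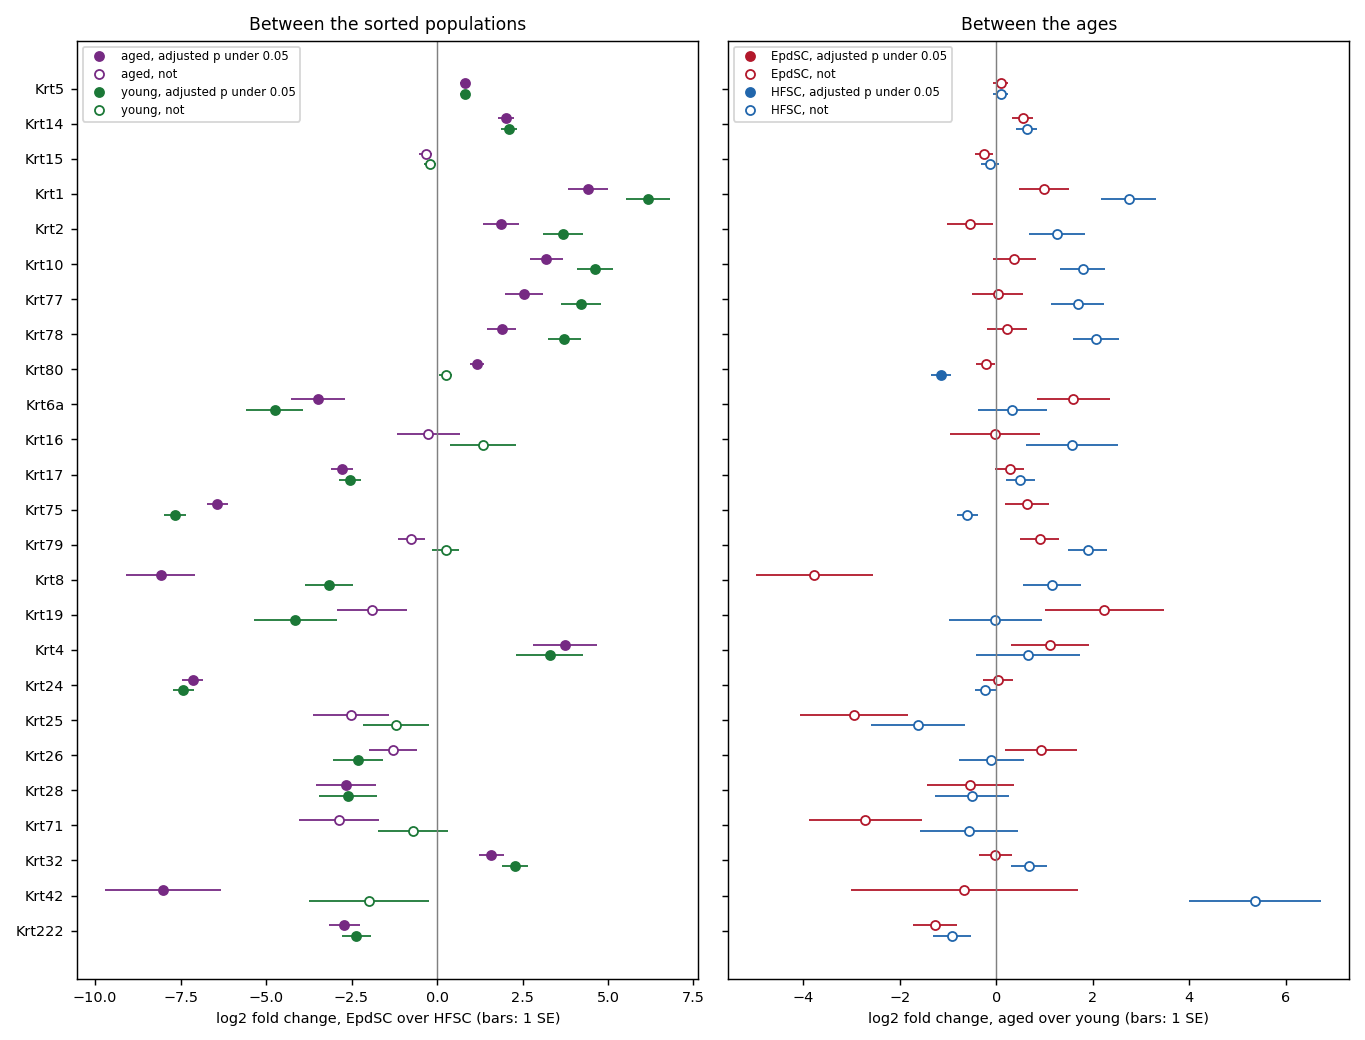
Log2 fold changes of keratins with 1 standard error from the edgeR fit, EpdSC over HFSC in aged and in young mice on the left, and aged over young in EpdSC and in HFSC on the right. Filled points have an adjusted p under 0.05: on the left 10 are higher and 8 lower in aged mice, and on the right Krt80 in HFSC is filled.

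With age, few keratins passed the test in either population. In aged against young HFSC, Krt80 fell by 1.15 ± 0.20 on the log2 scale (edgeR adjusted p = 0.0411), and it was the only call: 0 higher and 1 lower of 40, beside 0.294% and 0.0745% of all genes. At an unadjusted p under 0.05, 13 of the 40 keratins passed, beside 7.68% of all genes, and DESeq2 called 2 higher and 1 lower. The Krt80 call was lost without the second aged HFSC library (log2 fold change -0.83, edgeR adjusted p = 0.156) or the first young one (-1.12, 0.0611), and also with library totals (adjusted p = 0.0688), a filter of 1 CPM in 2 libraries (0.0708) or only the 4 HFSC libraries in the fit (0.154).

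The suprabasal keratins had positive HFSC age values without a call at this threshold, 7 of 9. Their median was 1.68 on the log2 scale, against 0.02 over all genes. Krt1 was 2.74 ± 0.57 (edgeR adjusted p = 0.0806), Krt78 2.06 ± 0.48 (0.131), Krt10 1.79 ± 0.47 (0.181) and Krt77 1.68 ± 0.54 (0.330), each with both aged libraries above both young ones. The 2 young HFSC libraries lay far apart for these genes. Without the second young HFSC library the values were 4.65 for Krt1 (adjusted p = 1.14e-05), 3.54 for Krt78 (0.000892), 3.22 for Krt10 (2.56e-05) and 3.41 for Krt77 (2.56e-05), and all 4 were called. Krt1 was also called without the first young HFSC library (1.91, adjusted p = 0.00367) or either young EpdSC library (0.0289 and 0.0371), and Krt10 without the first young HFSC library (1.05, 0.0439). DESeq2 called Krt1 (2.72, adjusted p = 0.0261) and Krt78 (2.05, 0.000436). Summed levels of 11 suprabasal markers that are not keratins were 323 and 390 CPM in aged HFSC and 303 and 268 CPM in young HFSC, with 8 of 11 positive, a median log2 fold change of 1.26, 7 at an unadjusted p under 0.05 and none called. The sums of these 11 markers in EpdSC were 2277 and 1941 CPM aged and 2148 and 1686 CPM young. Members of the list did not all move one way in HFSC. Lor was 2.11 and 2.17 CPM in aged HFSC and 0.80 and 0.63 CPM in young HFSC. Its level was as low in aged EpdSC, at 1.89 and 2.38 CPM. Sbsn had 91.5 and 108 CPM in aged HFSC and 107 and 110 CPM in young HFSC. Lypd3 had 43.4 and 62.7 CPM in aged HFSC and 125 and 21.5 CPM in young HFSC. The 6 interfollicular basal markers summed to 2146 and 2694 CPM in aged HFSC against 1741 and 1774 CPM in young HFSC. All 6 were positive and 1 was called, Ly6d, with 39.5 and 54.8 CPM in aged HFSC against 7.29 and 14.4 CPM in young HFSC. Their sum does not set the populations apart, with 2386 and 2419 CPM in aged and 2412 and 1779 CPM in young EpdSC. Thbs1 had 1058 and 1446 CPM in aged HFSC against 664 and 662 CPM in aged EpdSC, and Moxd1 696 and 792 CPM against 212 and 235 CPM. Thbs1 in young HFSC had 743 and 605 CPM. The part of these markers' cells in the suprabasal keratin values was not tested.

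Krt79, a keratin of the upper follicle and sebaceous duct, had 62.2 and 79.0 CPM in aged HFSC against 14.3 and 23.6 CPM in young HFSC, without overlap, and missed the threshold (log2 fold change 1.90 ± 0.40, edgeR adjusted p = 0.0925). In EpdSC the libraries were 24.8 and 58.9 CPM aged and 15.4 and 29.7 CPM young. The 7 upper follicle markers summed to 310 and 372 CPM in aged HFSC against 215 and 227 CPM in young HFSC, and the 9 sebaceous markers to 446 and 573 CPM against 206 and 259 CPM. Their part in the Krt79 value was not tested. The basal keratins Krt14 (0.63 ± 0.22, adjusted p = 0.389) and Krt5 (0.09 ± 0.15, adjusted p = 0.994) did not pass in HFSC, although Krt14 was called without the first aged HFSC library (0.93, adjusted p = 0.0393). Krt79 was called when any 1 EpdSC library was left out of the fit (adjusted p = 0.0221 to 0.0271).

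In aged against young EpdSC no keratin was called in either direction by edgeR, beside 0.0559% of genes called higher and 0.028% lower, and none by DESeq2, while 6 of 40 had an unadjusted p under 0.05, beside 4.46% of all genes. Krt14 was higher in both aged EpdSC libraries than in both young ones (log2 fold change 0.55 ± 0.22, edgeR adjusted p = 1). Krt1 was likewise higher in both (0.99 ± 0.52, adjusted p = 1), and Krt77 overlapped (0.03 ± 0.52).

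The difference between these age effects, EpdSC minus HFSC, was called for 0 of 40 keratins in either direction by edgeR and by DESeq2, beside 0% of genes higher and 0.00466% lower, and 9 of 40 had an unadjusted p under 0.05, beside 4.57% of all genes. Krt8 had the smallest p of the members (log2 difference -4.92 ± 1.34, edgeR adjusted p = 0.556), then Krt80 (0.93 ± 0.28, adjusted p = 0.695, and 1.34 with adjusted p = 0.041 without the first aged HFSC library). Krt1 was -1.75 ± 0.75 (adjusted p = 1). Without the second young HFSC library Krt1, Krt10, Krt77 and Krt78 were called lower, at -3.66, -2.85, -3.39 and -3.32. With all libraries and no filter on low counts they were at -1.77, -1.42, -1.67 and -1.85, and were called (edgeR adjusted p = 5.61e-10, 1.48e-06, 2.23e-09 and 0.000762). Krt1 thus kept nearly the same difference, and why it passed in that fit was not tested. That fit takes in genes with almost no counts, so its calls are not read as a result.

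Genes whose products bind keratin filaments followed the populations more than age. Of 15 tested desmosome and linker genes, 10 were higher and 0 lower in aged EpdSC than in aged HFSC, and 9 were higher and 1 lower in young EpdSC, beside the 12.2% and 11.9% of all genes in aged mice and 13% and 13.1% in young mice given above. Pkp4, a desmosomal plaque protein of the plakophilin family, had log2 fold changes of 2.57 ± 0.15 aged and 2.76 ± 0.15 young, Pkp1 had 1.74 and 2.60, and Ppl, which links filaments to the cell border, 1.16 and 1.04. Of 11 other intermediate filament and lamin genes, 2 were higher and 2 lower at each age, near those shares. Of 15 keratinocyte transcription factors, 9 were higher and 3 lower in aged EpdSC, and 10 and 3 in young EpdSC. The follicle factors Hoxc13 (-5.06 aged, -5.85 young), Sox9 (-4.71 and -4.72) and Lhx2 (-7.96 and -7.93) were the lower ones, and Tfap2c was among the higher (3.60 and 4.42). With age 1 gene of these lists was called in HFSC, Zfp750, a regulator of epidermal differentiation (log2 fold change 1.36, edgeR adjusted p = 0.0318), and none in EpdSC, where 3 transcription factors and 1 filament or lamin gene had an unadjusted p under 0.05.

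Single cells placed the same keratins in clusters. The aged 10x library kept 4469 barcodes with a median of 2271 unique molecular identifiers (UMIs), and the young library 4038 barcodes with a median of 3923. Keratins took 3.43% of UMIs in aged and 2.94% in young cells, and 3.89% and 3.40% in barcodes of 1 to 100 UMIs, which hold free RNA. The libraries shared 33 barcodes. With 1 library per age nothing here has a replicate check, so levels are given without a test, and Poisson intervals cover counting error only. Clusters were built without keratin genes and named from other markers. Of the 15 clusters, 8 could be named: 2 suprabasal-like, 2 upper follicle-like, 1 bulge-like, 2 proliferating-like and 1 sebaceous-like.

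**Figure D3:**
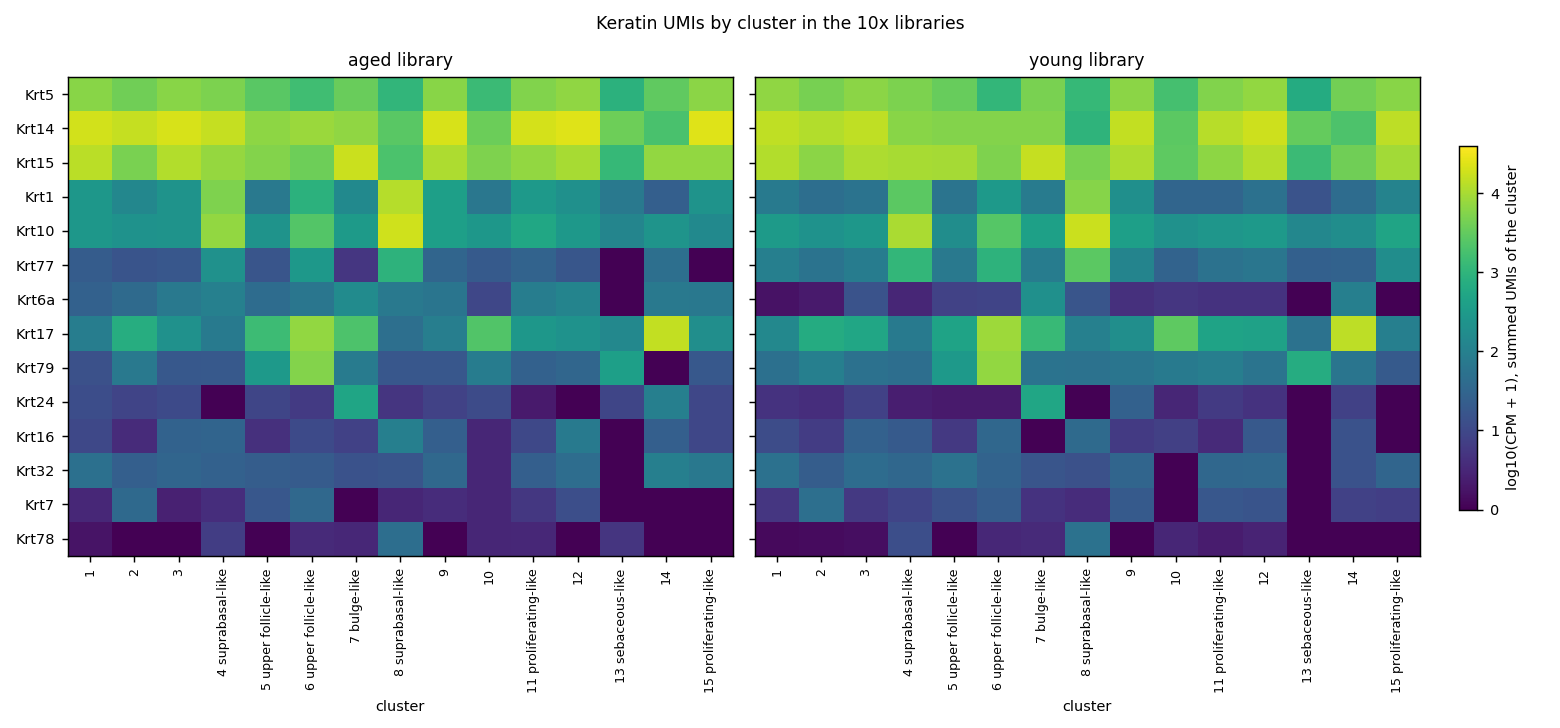
Levels of 14 keratins in 15 clusters of single cells, as log10 of CPM + 1, aged library on the left and young on the right. Krt10, Krt1 and Krt77 peak in the suprabasal-like clusters, Krt79 in an upper follicle-like cluster, Krt17 in unnamed cluster 14 and Krt24 in the bulge-like cluster at both ages.

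UMIs count molecules by their ends, so here genes can be ranked. Krt14 led with 14970 CPM in the aged library and 9811 CPM in the young, followed by Krt15 (8834 and 8705 CPM), Krt5 (4572 and 4563 CPM) and Krt10 (2754 and 2738 CPM). Krt14 gave 43.7% of keratin UMIs in aged and 33.3% in young cells. Its level was higher in the aged library in 14 of 15 clusters, while Krt5 was higher in 3 of 15 and Krt15 in 6 of 15. Krt14 was 15215 CPM aged and 9909 CPM young in the free RNA as well, and the part of free RNA in the cluster levels was not tested.

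In suprabasal-like cluster 8, which led in Krt10, that gene had 18317 CPM in aged cells (95% Poisson interval 18048 to 18590) and 17169 CPM in young cells (16953 to 17386). Krt1 there had 12225 CPM aged (12006 to 12448) and 5806 CPM young (5681 to 5933). Krt77 went the other way, with 925 CPM aged (865 to 987) and 2811 CPM young (2725 to 2900). In suprabasal-like cluster 4, Krt10 had 7172 CPM aged and 10224 CPM young, Krt1 5073 CPM aged and 2802 CPM young, and Krt77 214 CPM aged and 1098 CPM young. Both clusters had more Krt1 and less Krt77 in aged cells, and only cluster 8 had more Krt10. Krt14, a basal keratin, had 15380 CPM aged and 6057 CPM young in cluster 4, and 2639 CPM aged and 969 CPM young in cluster 8.

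Over whole libraries, 2 of 14 keratins with at least 100 UMIs were at least 2-fold higher in the aged library, beside 0.788% of 8883 genes, and 3 were at least 2-fold lower, beside 1.45%. The median over all genes was -0.02. The higher ones were Krt6a (60.7 CPM aged and 15.6 CPM young, log2 ratio 1.89) and Krt1 (1870 and 796 CPM, 1.23). The lower ones were Krt77 (130.03 and 480.5 CPM, -1.88), Krt79 (252 and 816 CPM, -1.69) and Krt7, a simple-epithelium keratin (6.80 and 14.8 CPM, -1.02). Krt1 was higher in aged cells in 14 of 14 clusters with enough UMIs, Krt6a in 10 of 11, Krt77 in 0 of 13 and Krt79 in 2 of 13. Free RNA moved in the same direction, with Krt1 at 1781 CPM aged and 820 CPM young, Krt77 at 211 and 729 CPM, Krt79 at 314 and 1009 CPM and Krt6a at 70.3 and 20.4 CPM. Its part in these ratios was not tested.

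Follicle keratins marked other clusters. In the bulge-like cluster 7, Krt15 had 17039 CPM aged and 15564 CPM young, its highest level of any cluster at each age. Krt24 there had 510 CPM aged (447 to 581) and 517 CPM young (468 to 569), intervals that overlap. With at least 1000 UMIs and at most 5% mitochondrial UMIs per barcode, bulge-like cells had 10050 CPM aged and 8781 CPM young of Krt15, and 212.1 CPM aged and 254.2 CPM young of Krt24. Krt6a had 166 CPM aged (131 to 209) and 204 CPM young (174 to 238) in that cluster. In upper follicle-like cluster 6, Krt79 had 5670 CPM aged and 7102 CPM young, and Krt17 7109 CPM aged and 8318 CPM young. That cluster held 185 aged cells (4.14%) and 422 young cells (10.45%), and the 7 upper follicle markers summed to 1087 CPM in the aged and 3351 CPM in the young library. Krt17 was highest in unnamed cluster 14, led by Aspn and Pthlh, with 15008 CPM aged and 13647 CPM young. Keratins took least of the sebaceous-like cluster, 0.672% of UMIs aged and 0.627% young. Krt75 had 4 and 5 UMIs and Krt80 20 and 65 UMIs in the aged and young libraries, too few to place either in a cluster. For Krt80 this was 1.79 CPM aged and 3.81 CPM young, against 80.1 to 283 CPM in the bulk libraries. Krt80 overlaps other RefSeq genes and the strand setting of the bulk counting is not given. The cause of this gap was not tested.

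The bulk and single-cell libraries differed for some members. Krt77, lower in every aged cluster with enough UMIs, had overlapping levels in aged and young bulk EpdSC. In bulk HFSC Krt77 had 240.1 and 254 CPM aged against 22.9 and 131 CPM young. The bulge-like cells went the other way, with 4.44 CPM aged (0.54 to 16.0) and 85.3 CPM young (66.2 to 108). Krt10, also higher in aged bulk HFSC, had 315 CPM aged (265 to 371) and 418 CPM young (374 to 465) in these cells. Krt1 went with bulk HFSC there, at 153 CPM aged (119 to 194) and 80.3 CPM young (61.8 to 102.5). Krt79, lower in the whole aged 10x library, had higher values in aged bulk HFSC. In the bulge-like cells alone Krt79 had 82.1 CPM aged (57.8 to 113) and 55.2 CPM young (40.1 to 74.1), intervals that overlap. The aged value was thus the higher one there, as in bulk HFSC. The sorts differ as well, since the 10x gate took all integrin alpha6-positive cells. The part of the sorts in these differences was not tested.

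ATAC-seq counts were summed over promoters, here all 500-base windows that overlap the gene start or the 1000 bases to each side of it. The totals were 22933001 counts in aged EpdSC, 37322834 in young EpdSC, 8243611 in aged HFSC and 26169738 in young HFSC. Each library is 1 sample, so ratios have no replicate check, and their intervals cover counting error only. Starts came from RefSeq for 35 members. In 4 of these the start lies over 1000 bases inside the outer gene end: Krt14 (1480 bases), Krt36 (3861), Krt10 (8085) and Krt78 (42337). For the other 16 the files gave no start, and the gene end with more counts was used. Of the 35, 33 lie on the minus strand, where a gene starts at its higher-coordinate end. For 6 of the 16 (Krt1, Krt33a, Krt19, Krt81, Krt83 and Krt6b) the lower-coordinate end was used. The windows of these 6 may thus not hold the promoter, although they enter the promoter counts below.

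In young mice, 12 of 44 keratin promoters with 20 counts were at least 2-fold more open in EpdSC than in HFSC, beside 9.26% of all promoters, and 7 were at least 2-fold less open, beside 4.92%. Krt10 had 3.83 CPM in EpdSC and 0.61 CPM in HFSC, a log2 ratio of 2.61 (1.90 to 3.49). At its outer gene end, looked at after the data had been seen, it had 0.70 and 0.11 CPM, on 26 and 3 counts. Krt77 had 6.75 CPM in EpdSC and 1.41 CPM in HFSC (log2 ratio 2.24, 1.75 to 2.80). Krt16 had the highest ratio, 8.68 CPM against 0.80 CPM (3.40, 2.80 to 4.15), though its RNA did not pass the test. Krt1 at its lower-coordinate end had 6.48 CPM in EpdSC and 2.37 CPM in HFSC (1.44), and at its other end 5.87 CPM in EpdSC and 0.54 CPM in HFSC. The less open promoters included Krt24 with 1.34 CPM in EpdSC and 6.11 CPM in HFSC (-2.18, -2.68 to -1.72), Krt75 with 0.80 and 4.62 CPM (-2.51, -3.15 to -1.94) and Krt6a with 3.67 and 16.7 CPM (-2.18, -2.47 to -1.90). Krt2 was also less open in EpdSC, 0.29 CPM against 2.02 CPM, on 11 and 53 counts, although its RNA was higher there.

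In aged mice, 13 of 32 promoters were at least 2-fold more open in EpdSC, beside 41.3% of all promoters, and 7 less open, beside 6.32%. Scaled to the counts in all promoters instead, 5 were more open and 11 less open, beside 4.44% and 18.1% of all. The median log2 ratio over all promoters was 0.88 in aged and 0.09 in young mice, and the aged HFSC library was the shallowest. Relative to that shift, Krt77 and Krt10 were above the median. Krt77 had 6.24 CPM in EpdSC and 1.09 CPM in HFSC (log2 ratio 2.44), and Krt10 4.23 and 0.85 CPM (2.22). So was Krt1 at its lower-coordinate end, with 7.24 and 0.85 CPM (3.00). At its other end Krt1 had 9.03 CPM in EpdSC and 0.61 CPM in HFSC. Krt24, at 0.83 CPM in EpdSC and 3.76 CPM in HFSC, had a log2 ratio of -2.17 (-3.09 to -1.31), on 19 and 31 counts.

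**Figure D4:**
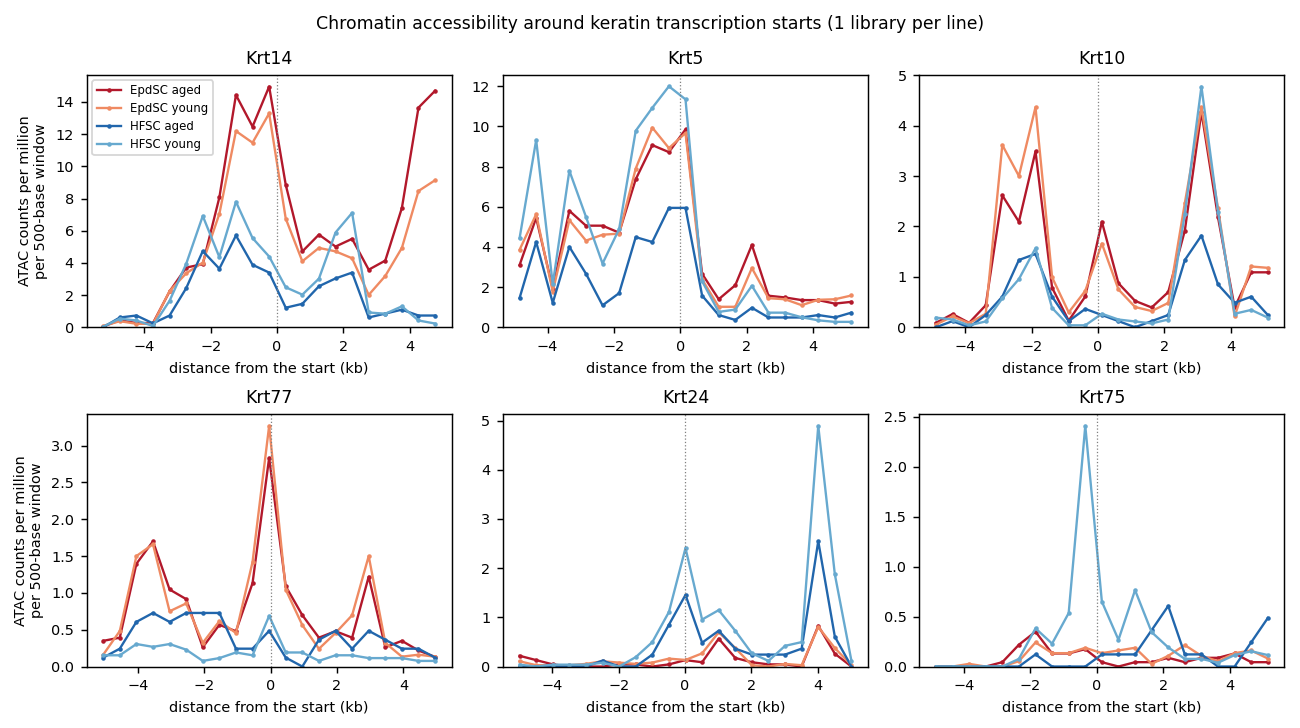
ATAC-seq CPM in 500-base windows against distance from the gene start in kb for 6 keratins, with 1 line per library. Near the start, EpdSC lines are above HFSC lines for Krt10 and Krt77, HFSC lines are above for Krt24 and young HFSC is above for Krt75; Krt14 is centred on its outer gene end.

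The basal keratins were open in all 4 libraries. Krt5 had 31.7 CPM in aged EpdSC, 31.9 CPM in young EpdSC, 18.3 CPM in aged HFSC and 37.3 CPM in young HFSC. Krt15 had 20.5, 23.3, 14.4 and 22.7 CPM in the same order. At the RefSeq start Krt14 had 29.8 CPM in aged EpdSC, 24.8 CPM in young EpdSC, 11.65 CPM in aged HFSC and 20.5 CPM in young HFSC, so that EpdSC over HFSC was 1.35 in aged and 0.27 in young mice on the log2 scale. That start lies 1480 bases inside the outer gene end. At the outer end, looked at after the data had been seen, the levels were 55.4 CPM in aged EpdSC, 47.8 CPM in young EpdSC, 15.7 CPM in aged HFSC and 22.2 CPM in young HFSC.

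Between ages, 3 of 35 keratin promoters were at least 2-fold more open in aged than in young HFSC, beside 5.1% of all, and 6 less open, beside 19.2%, where the median over all promoters was -0.65. Scaled to the counts in all promoters, 14 were more open and 2 less open, beside 18.2% and 0.507% of all. Krt75 had 0.36 CPM in aged HFSC and 4.62 CPM in young HFSC, on 3 and 121 counts (log2 ratio -3.45, -5.97 to -2.09). In the window at -0.346 kb from its start, aged HFSC had no count and young HFSC had 2.41 CPM. Krt80, whose RNA was called lower in aged HFSC in the 8-library fit, had 11.3 CPM aged and 25.5 CPM young (-1.17, -1.50 to -0.86). Its start was the gene end with more counts. Krt5, without an RNA call between ages, had 18.3 CPM aged and 37.3 CPM young in the same pair of libraries. In aged against young EpdSC, 0 of 42 promoters were 2-fold more open, beside 1.54%, and 3 less open, beside 2.79%: Krt13, Krt26 and Krt36, each on 5 counts in the aged library.

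Setting RNA beside promoter openness, 12 of 15 keratins called in aged EpdSC against HFSC had a promoter ratio of the same sign, and 11 of 18 in young mice. Across members with both values, Pearson's r was 0.43 and Spearman's rho 0.49 over 29 in aged mice, and 0.48 and 0.36 over 36 in young mice. For aged against young they were -0.064 and -0.19 over 31 in HFSC, and -0.17 and 0.0084 over 35 in EpdSC. The share of same signs over all genes was not computed. In aged mice the median promoter ratio over all genes was itself 0.88. These are correlations across genes of the same libraries, and genes are not independent replicates.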

How the data were processed

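For RNA-seq the authors deposited raw counts per gene, ATAC-seq counts per 500-base window in overlapping steps, and 10x UMI counts for 737280 barcodes per library. The submitters' processing notes name STAR, Bowtie, Cell Ranger and mm10, without versions. Not given in the sources used here are the counting's strand setting and annotation release, the removal of duplicates and any shift of ATAC reads. Sense and antisense reads may thus be mixed, and 7 keratins (Krt222, Krt24, Krt25, Krt26, Krt12, Krt80 and Krt6a) overlap another RefSeq gene.

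RNA counts were tested in edgeR 4.0.16 (R 4.3.3) with trimmed-mean scaling, filterByExpr, 1 term per group and no covariate (common biological coefficient of variation 0.277). The script was tested on simulated data. Replicates of each group differed beyond sampling noise. DESeq2 1.42.0, other scalings and filters, a replicate block and leaving out libraries were alternatives. In 10x, barcodes needed at least 500 genes, at most 10% mitochondrial UMIs and the 99th percentile of the 4000 deepest barcodes divided by 10, 682.2 UMIs aged and 1049 young. The labels state 4000 cells captured per library. Clusters came from scanpy 1.11.5 (2000 variable genes without keratins, scaled within library, 30 components, Leiden resolution 1). Doublets were not removed in the values reported. ATAC used 5267565 non-overlapping windows per library, CPM of the library's total, and a pseudocount of 0.5. Only promoters with 20 counts over the pair were compared.

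Keratins were named with values if called in any RNA contrast, at 5 CPM in a group, at 100 UMIs in 10x, or past 2-fold in ATAC. Of the partner lists the smallest p led, up to 4 genes per contrast. The members and lists were chosen with earlier results of these data known.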

Additional observations from a re-analysis of the deposited data

How the results depend on the processing

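Of 849 alternative values for 57 single-gene RNA results, 774 kept their direction and their side of the threshold, 32 lost and 38 gained a call, and 5 reversed. The reversed ones were near 0: Krt15 in young EpdSC against HFSC was 0.022 without the second young HFSC library (range without 1 library -0.41 to 0.022), Krt5 in aged against young HFSC was -0.10 without the second aged and -0.02 without the first young HFSC library (range -0.10 to 0.25), and Krt77 in aged against young EpdSC was -0.0017 with library totals and -0.26 without the first aged EpdSC library (range -0.26 to 0.27). In aged against young HFSC, 2 keratins were called higher with the replicate block and 2 with DESeq2, and 0 were called lower with library totals, with a filter of 1 CPM in 2 libraries, or with only the 4 libraries compared. With no filter on low counts, 9 were called higher and 2 lower in HFSC, 3 higher and 2 lower in EpdSC, and for the difference of age effects 2 higher and 8 lower. That fit takes in genes with almost no counts, and its calls are not read as a result. Shares over all genes are not set beside the counts of calls under any alternative setting here, so these counts do not set keratins apart. Deviations of same-numbered libraries correlated at -0.214 to 0.174, positive across ages within a population (0.157 in HFSC, 0.174 in EpdSC) and negative across populations, so the numbers were not taken to pair the samples. The replicate block called Krt1 (adjusted p = 0.0262) and Krt79 (0.00538) higher in aged HFSC and Krt79 lower in aged EpdSC (0.00854), and ended the young Krt28 call (0.0529). Leaving out 1 library gave 0 to 4 keratins called higher and 0 to 1 lower in HFSC with age, 0 and 0 in EpdSC, 8 to 9 higher and 6 to 10 lower in young EpdSC against HFSC, 8 to 10 higher and 6 to 10 lower in aged, and 0 to 1 higher and 0 to 4 lower for the difference of age effects. The cause was not tested.

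In 10x, Krt10 in suprabasal-like cells (11810 CPM aged, 13660 CPM young) was 12140 CPM aged with the stricter cell filter, 12190 CPM aged and 14370 CPM young without the 4% of barcodes with the highest doublet score, and 13840 CPM young with keratins kept in the clustering. In bulge-like cells, with keratins kept, Krt15 was 10860 CPM aged and 10900 CPM young and Krt24 251.6 CPM aged and 326 CPM young. Under the stricter filter Krt15 was 10050 and 8781 CPM and Krt24 212.1 and 254.2 CPM, and without likely doublets Krt15 was 18950 and 16240 CPM and Krt24 609.9 CPM aged. Krt79 in upper follicle-like cells (2447 CPM aged, 4916 CPM young) was 3493 CPM aged and 5745 CPM young under the stricter filter and 2580 CPM aged without likely doublets. In ATAC, promoters were also scaled to all promoter counts. In aged EpdSC against HFSC 5 of 32 were then more and 11 less open, beside 4.44% and 18.1% of all. For HFSC with age 14 of 35 were more and 2 less open, beside 18.2% and 0.507%. For EpdSC with age 6 of 42 were less open, beside 3.45%. A pseudocount of 5 gave 7 of 32 more open in aged EpdSC against HFSC, beside 32.9% of all promoters. In HFSC with age it gave 8 of 35 more and 2 less open, beside 7.91% and 11.8%. In EpdSC with age it gave 0 of 42 less open, beside 0.598%. Promoters of 500 bases to each side gave 2 of 21 less open in aged EpdSC against HFSC, beside 2.88% of all. Starts at the outer gene end, chosen after seeing the data, moved no count by over 1.5 times. The depth of the aged HFSC ATAC library, 8243611 counts, limits the promoter ratios that use it.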
